A study of Homo sapiens with 4 samples.

Results

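The BCL2 family decides whether a cell commits to apoptosis through its mitochondria. Anti-apoptotic members such as BCL2, BCL-XL (BCL2L1) and MCL1 hold the pore-forming effectors BAX and BAK1 in check, and the BH3-only members, which carry a single short BCL2 homology domain, relieve that restraint or act on the effectors directly. In B cells BIM (BCL2L11) is a main trigger of death, and in Burkitt lymphoma the pressure of MYC towards death makes the family central to survival. The 10 genes described here are the anti-apoptotic BCL2, BCL2L1 and MCL1, the effector BAK1, the BH3-only genes BCL2L11, BID, BAD, BMF and BIK, and BCL2L12, a member whose role is less settled. They were taken by symbol, all 10 were found among 51714 Ensembl gene identifiers, and 9 had enough reads to be tested.

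RNA came from Raji cells, an established Epstein-Barr virus-positive B cell line from a Burkitt lymphoma. The WT group (2 libraries) received a vector for HA-tagged wild-type RPB1, which is RNA polymerase II's largest subunit, in a form resistant to α-amanitin. The R1810A group (2 libraries) received the resistant RPB1 with the R1810A substitution, arginine to alanine, at a methylation site in the tail (C-terminal domain) of the protein. Cells of both groups were polyclonal, selected with G418 and then kept for 10 days in α-amanitin, so that the resistant subunit took over from the endogenous enzyme, and the comparison asks which RNAs differ once that arginine is gone. No untransfected cells are among these samples, so any effect of the vector or of α-amanitin common to both groups cannot be seen. The labels do not tell whether replicates were separate cultures, so p-values reflect library-to-library spread alone, and that spread may be technical.

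Summed gene counts ran from 2081636 to 2991959 per library. The 6 B cell markers (CD79A, CD79B, MS4A1, CD22, PAX5 and CD74) all had at least 10 reads in every library, with a summed level of 1826.5 to 2288 RPKM, the read count divided by gene length and by the total reads of the library. The germinal centre B cell markers BCL6, MME and CD38 summed to 28.3 and 44.2 RPKM in WT and 26.2 and 29.7 RPKM in R1810A, and each of the 3 was highest in WT replicate 2. Erythroid markers had 0 reads, T cell markers summed to at most 0.245 RPKM with CD3D and CD2 at 0, and fibroblast and epithelial markers to at most 0.324 RPKM with COL1A2, EPCAM and KRT8 at 0. Of 4 myeloid markers only CSF1R had at least 10 reads in every library, and that list summed to 16.1 to 25.96 RPKM. The part of these markers in the values below was not tested. In RNA from whole cultures, fewer cells that transcribe a gene and less RNA per cell cannot be told apart. For each of 10674 genes tested, the ratio of the 2 libraries of a group was given a 95% interval for counting error. It excluded 1 in 22.2% of genes for WT and in 9.27% for R1810A, a difference between libraries and not between conditions. Some intervals exclude 1 through counting error alone. The WT libraries also had more reads, which narrows these intervals.

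BAK1 (ENSG00000030110, chromosome 6), which with BAX forms the pore in the outer mitochondrial membrane, was almost without reads. WT libraries held 7 and 10 of its reads and R1810A libraries 9 and 7, or 0.748, 0.810, 0.981 and 0.743 RPKM. BAK1 lay at the 4.58th percentile of the mean RPKM of all genes tested. It did not pass the filter on low counts. The exact Poisson interval (95%, counting error only) for WT replicate 1 ran from 0.301 to 1.54 RPKM and that for R1810A replicate 1 from 0.449 to 1.86 RPKM. The reads summed over each group gave a ratio of R1810A to WT of 1.20, with a counting interval from 0.565 to 2.52, which is too wide to show a difference of this size. BAX, the other effector (ENSG00000087088, chromosome 19), stood at 27.5 and 26.7 RPKM in WT and 24.2 and 19.6 RPKM in R1810A. BAX therefore exceeded BAK1 per length 36.8-fold and 32.9-fold in the WT libraries and 24.6-fold and 26.3-fold in the R1810A libraries.

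BAK1 has a processed pseudogene, BAK1P1, whose bases are shown here beside the coding sequence because reads from one could be counted at the other. The lines give the first 90 coding bases of BAK1, counted from the A of its start codon, and the matching bases of BAK1P1, 5′ to 3′ from the transcripts of GENCODE release 29 (GRCh38), with the base that differs in capitals.
BAK1: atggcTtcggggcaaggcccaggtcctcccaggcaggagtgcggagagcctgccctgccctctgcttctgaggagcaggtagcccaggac
BAK1P1: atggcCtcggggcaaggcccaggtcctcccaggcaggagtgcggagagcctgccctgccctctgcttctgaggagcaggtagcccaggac
Over the whole coding sequence of 633 bases, the copy differed at 11, an identity of 98.3%. BAK1P1 had 3 to 5 reads per library, so adding it would leave BAK1 far below BAX. Of the 2243 different stretches of 36 bases in BAK1 transcripts, 17.1% also occurred in transcripts of other genes, and BAK1P1 held 15.5%. Most of BAK1 is therefore distinct from any other annotated transcript at that length, a length chosen here because the labels state no read length. How reads with several matches were treated is likewise unknown. The other member with a copy of note was BCL2L12, whose pseudogene BCL2L12P1 had 11 to 25 reads per library.

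Per length, the highest members were BIK and MCL1, an inducer and an inhibitor of apoptosis at similar levels. BIK (ENSG00000100290, chromosome 22), a BH3-only protein of the endoplasmic reticulum, stood at 47.6 and 39.6 RPKM in WT and 41.3 and 37.4 RPKM in R1810A. MCL1 (ENSG00000143384, chromosome 1), a short-lived inhibitor that binds BIM and NOXA, stood at 42.5 and 34.9 RPKM in WT and 36.1 and 40.3 RPKM in R1810A. The ranges over the 4 libraries overlapped, and BIK lay above MCL1 in 3 of them. Their deposited lengths differ, 953 bases for BIK and 4218 for MCL1, and MCL1 had the more reads in every library (612 to 796, against 147 to 204 for BIK).

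The order below them was BCL2L1, BAD, BID, BCL2L11, BCL2L12, BCL2, BMF and BAK1. BCL2L1 lay above BAD in all 4 libraries with no overlap of their ranges. The ranges of BAD and BID overlapped, as did those of each neighbouring pair from BCL2L11 to BMF, so by range these neighbours do not differ beyond their spread. Within libraries, BCL2L12 nevertheless lay above BCL2 in all 4, whereas BAD over BID, BCL2L11 over BCL2L12 and BCL2 over BMF held in 3. BCL2, the gene that names the family, had 4.61 to 7.24 RPKM and lay at the 46.3rd percentile of the genes tested, whereas BCL2L1 lay at the 82.9th, MCL1 at the 91.5th and BIK at the 92.3rd. RPKM rests on the length the authors used. For BCL2 that was 7589 bases, against 11765 in GENCODE release 29, and for BCL2L11 it was 8459 against 6658.

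**Figure D1:**
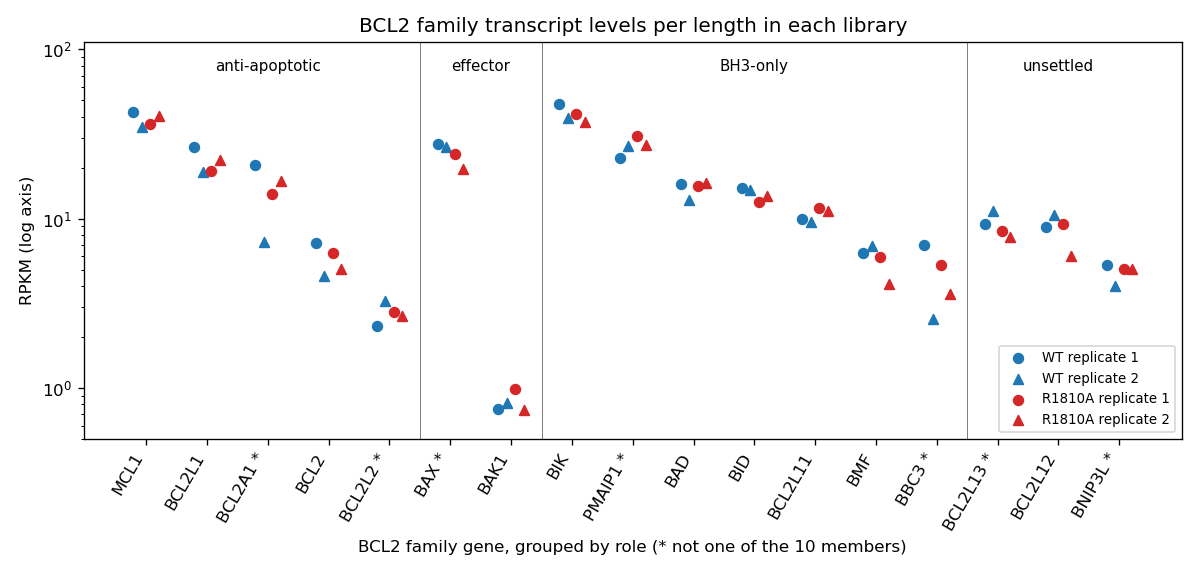
RPKM (log axis) of the 10 members and of 7 other BCL2 family genes (asterisks) in each of the 4 libraries, grouped by role. WT libraries are blue, R1810A libraries red, circles replicate 1 and triangles replicate 2. BIK and MCL1 lie near 40 RPKM in all libraries, BAK1 lies below 1 RPKM, and the red and blue points of most genes are mixed.

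The comparison of R1810A with WT called no member. The edgeR quasi-likelihood test was run on the read counts of all genes, with Benjamini-Hochberg adjustment at 0.05, and 0 of the 9 tested members passed, against 0.356% of all genes tested (0.347% higher and 0.00937% lower). DESeq2 and limma-voom also called 0. At an unadjusted p under 0.05, edgeR had 1 member higher and 0 lower, against 4.94% and 3.06% of all genes, while DESeq2 had 0 and limma-voom 1. With scaling to the deposited total reads, edgeR had 0 members at that p in either direction. The count of members also changed on leaving out some single libraries, in fits whose share of all genes was not counted. The median log2 fold change of the 9 members was 0.01, against 0.00 over all genes, with 5 positive and 4 negative. In counts scaled as for the fold changes, the groups did not overlap for 2 of the 9, BCL2L11 and BAD, both higher in R1810A. So scaled, 39.3% of all genes did not overlap (19.8% higher and 19.5% lower). By RPKM, which rests on the deposited total reads, BCL2L11 again lay higher without overlap. BAD then overlapped (15.95 and 12.9 in WT, 15.6 and 16.1 in R1810A). BID (15.2 and 14.7 against 12.6 and 13.6) and BMF (6.23 and 6.89 against 5.94 and 4.11) then lay lower in R1810A without overlap. In CPM, the counts scaled as for the fold changes, BID and BMF overlapped. Scaling to the deposited total reads moved the median log2 fold change of all genes to -0.13. The share of all genes without overlap by RPKM was not counted, so no change of BID or BMF is read from it.

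Among the anti-apoptotic genes, MCL1 had 734 and 796 WT reads against 612 and 702 R1810A reads. In CPM, the count scaled to the TMM-adjusted library total, on which fold changes rest, that was 322 and 265 in WT and 293 and 338 in R1810A, with the highest library and the lowest ones split between the groups. The fold change was 1.08 (interval 0.889 to 1.31, edgeR adjusted p = 0.858). BCL2L1 (ENSG00000171552, chromosome 20), which codes for BCL-XL, stood at 157 and 112.2 CPM in WT and 123 and 147 CPM in R1810A. Its fold change was 1.01 (interval 0.784 to 1.30, edgeR adjusted p = 0.986), and both R1810A libraries lay between the WT libraries. BCL2 (ENSG00000171791, chromosome 18) stood at 98.6 and 62.9 CPM in WT and 92.1 and 76.5 CPM in R1810A, also between the WT libraries. The fold change was 1.06 (interval 0.779 to 1.43, edgeR adjusted p = 0.943).

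MCL1 and BCL2L1 are each known to be spliced into a long inhibiting and a short death-promoting form, and counts per gene do not separate them. In GENCODE release 29, an antisense RNA of BCL2L1, ABALON, shares 39.0% of the 36-base stretches of BCL2L1 on the opposite strand. Whether the counting used strand is unknown here, so its reads cannot be told apart from those of BCL2L1.

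BCL2L11, which codes for BIM, the BH3-only protein that binds every main inhibitor, had the smallest p of the members. It (ENSG00000153094, chromosome 2) had 344 and 439 WT reads and 391 and 387 R1810A reads. The levels were 151 and 146 CPM in WT and 188 and 186 CPM in R1810A, so the groups did not overlap and each was tight, at 148 ± 3.25 and 187 ± 0.935 CPM (SD, n = 2). The log2 fold change of 0.33 (SE 0.11), or 1.26-fold, did not pass over all genes (adjusted p = 0.425 with edgeR). Over 11 other settings the log2 fold change stayed between 0.21 and 0.35, and the adjusted p was never below 0.152. The lowest of these values, 0.21, came from scaling by the deposited total reads, which moved the median of all genes to -0.13, so relative to the other genes BCL2L11 lay as far up as before. A lincRNA on the opposite strand, MIR4435-2HG, spans BCL2L11, shares 9.99% of its 36-base stretches and had 14 to 25 reads per library. Its part in the value was not tested.

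**Figure D2:**
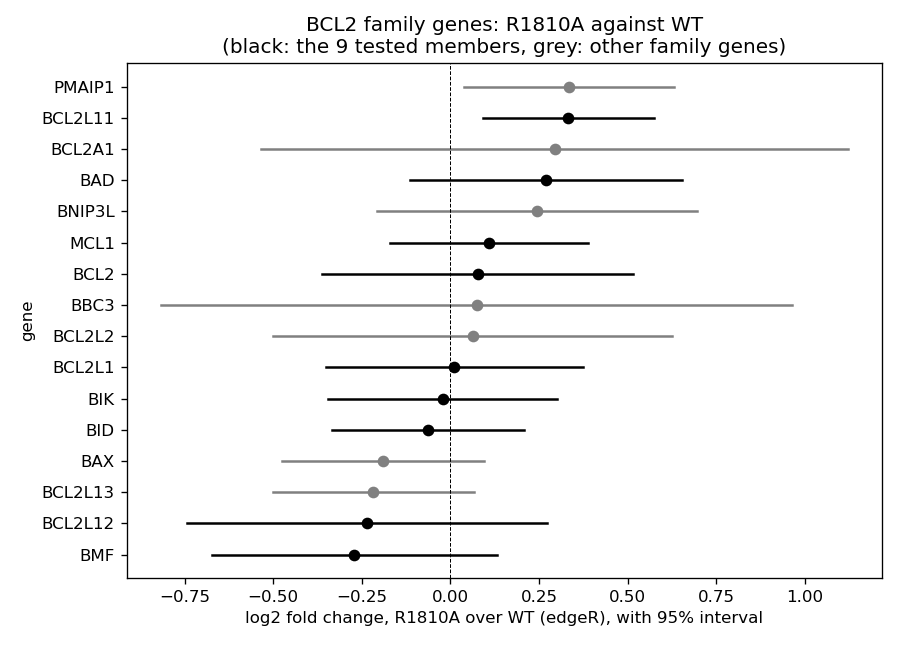
Log2 fold change of R1810A over WT from edgeR, with its 95% interval, for the 9 tested members (black) and 7 other BCL2 family genes (grey), 2 libraries per group. The intervals of BCL2L11 and PMAIP1 lie above 0, although neither passed after adjustment, and all others include 0.

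The remaining BH3-only members showed no common direction. BAD (ENSG00000002330, chromosome 11), which neutralises BCL2 and BCL-XL when survival signals cease, stood at 43.8 and 35.6 CPM in WT and 46.0 and 49.1 CPM in R1810A. Its groups did not overlap, the fold change was 1.21 (interval 0.924 to 1.57, edgeR adjusted p = 0.722), and its reads numbered only 96 to 107 per library. BAD shares 17.9% of its 36-base stretches with GPR137 on the opposite strand. GPR137 had 66 and 69 WT reads and 29 and 47 R1810A reads, where BAD had 100 and 107 and 96 and 102. The part of GPR137 in the value of BAD was not tested.

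BID (ENSG00000015475, chromosome 22), which links death receptors to mitochondria once caspase-8 cuts it, stood at 118 and 114 CPM in WT and 105 and 117 CPM in R1810A. R1810A replicate 2 lay within the WT range, and the fold change was 0.957 (interval 0.793 to 1.16, edgeR adjusted p = 0.923). BIK stood at 81.5 and 67.9 CPM in WT and 75.8 and 70.7 CPM in R1810A, both R1810A libraries between the WT ones. Its fold change of 0.985 had an interval from 0.787 to 1.23 (edgeR adjusted p = 0.981).

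BMF (ENSG00000104081, chromosome 15), a BH3-only protein held at the actin-based motor complex, stood at 53.5 and 59.3 CPM in WT and 54.7 and 38.97 CPM in R1810A. Only R1810A replicate 2 lay below the WT range. The fold change was 0.829 (interval 0.627 to 1.09, edgeR adjusted p = 0.736). BCL2L12 (ENSG00000126453, chromosome 19) showed the same layout, with 29.8 and 34.95 CPM in WT, 33.1 and 22.1 CPM in R1810A, and R1810A replicate 2 the low library. The fold change was 0.849 (interval 0.597 to 1.21, edgeR adjusted p = 0.819). Of the 36-base stretches of BCL2L12, 28.4% lie in IRF3 on the opposite strand, which had 213 to 265 reads per library against 46 to 105 for BCL2L12.

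The balance of the 2 sides differed between the groups by less than the spread of the libraries. Summed over BCL2, BCL2L1 and MCL1, the anti-apoptotic side came to 76.1 and 58.3 RPKM in WT and 61.6 and 67.7 RPKM in R1810A. The pro-apoptotic side, summed over BAK1, BCL2L11, BID, BAD, BMF and BIK, came to 95.7 and 84.6 RPKM in WT and 87.9 and 83.1 RPKM in R1810A. BCL2L12 was left out of both sides. Within a library the share of the anti-apoptotic side does not depend on how libraries are scaled. It was 44.3 and 40.8% in WT and 41.2 and 44.9% in R1810A, or 42.6 ± 2.45% and 43.0 ± 2.60% (SD, n = 2). The difference of 0.495 percentage points was smaller than either SD (two-sided exact permutation p = 0.667, where 2 against 2 libraries allow no p below 0.333). It changed sign when WT replicate 2 was left out (-1.24 points) or R1810A replicate 2 (-1.35 points), and came to 2.22 points without WT replicate 1. Leaving out R1810A replicate 1 gave 2.34 points. Which side was larger depended on the measure. By RPKM it was the pro-apoptotic side, but with raw counts the mean anti-apoptotic share was 53.5% in WT and 53.2% in R1810A. By RPKM without BIK it was 58.9% in WT and 58.3% in R1810A.

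Among the members summed, a single gene led each side. MCL1 gave 55.8 to 59.9% of the anti-apoptotic RPKM, BCL2L1 31.2 to 34.7% and BCL2 7.498 to 10.2%. BIK gave 45.0 to 49.8% of the pro-apoptotic RPKM, with BAD at 15.3 to 19.4%, BID at 14.4 to 17.4% and BCL2L11 at 10.4 to 13.3%. BCL2L11 made up 10.4 and 11.4% of the pro-apoptotic RPKM in WT and 13.1 and 13.3% in R1810A. MCL1 exceeded BCL2L11 4.28-fold and 3.64-fold per length in WT and 3.14-fold and 3.64-fold in R1810A, so R1810A replicate 2 had the ratio of WT replicate 2.

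**Figure D3:**
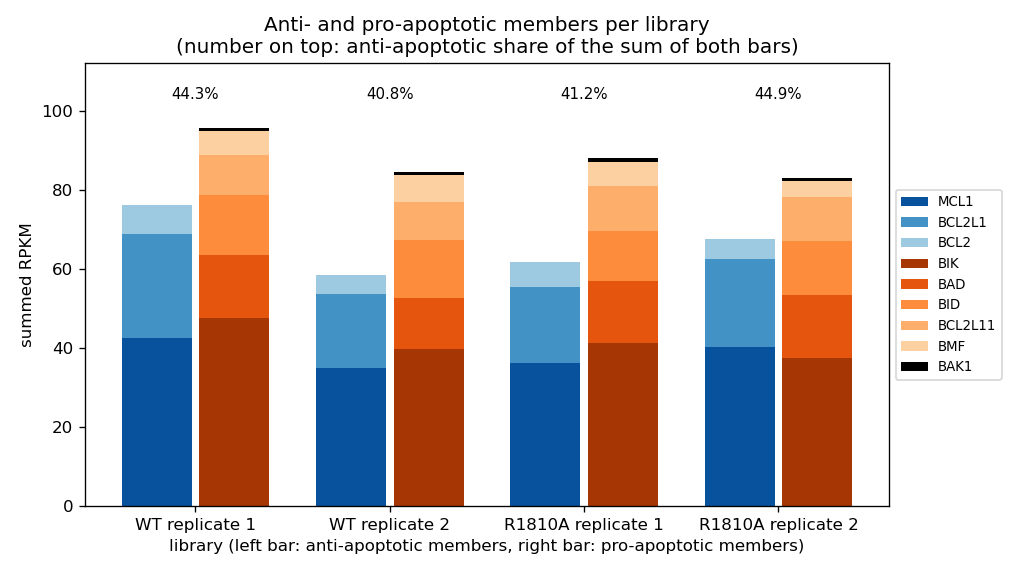
Summed RPKM of the anti-apoptotic members (left bar, blues) and the pro-apoptotic members (right bar, oranges, BAK1 black) in each library, with the anti-apoptotic share of both bars above. The shares of the 2 groups interleave, from 40.8 to 44.9%, and MCL1 and BIK make up the largest part of their bars.

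The 2 WT libraries differed from each other in the anti-apoptotic genes by more than the 2 groups did. The ratio of WT replicate 1 to WT replicate 2 was 1.57 for BCL2 (counting interval 1.29 to 1.91), 1.40 for BCL2L1 (1.20 to 1.63) and 1.21 for MCL1 (1.10 to 1.34). For the other 6 tested members that interval included 1, and it was narrow for BCL2L11 (1.03, from 0.893 to 1.19) and BID (1.03, from 0.877 to 1.21). In R1810A, replicate 1 lay below replicate 2 for MCL1 (0.869, from 0.779 to 0.970) and BCL2L1 (0.837, from 0.706 to 0.991) and above it for BMF (1.40, from 1.05 to 1.89) and BCL2L12 (1.495, from 1.02 to 2.22). These intervals cover counting error and compare libraries, not conditions. In all, 3 of 9 members in WT and 4 of 9 in R1810A had an interval that excluded 1, against 22.2 and 9.27% of all genes tested. A counting interval narrows with more reads, and these shares of all genes were not matched for read number.

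The fold changes of the anti-apoptotic genes turned with the WT library used. WT replicate 2 was the library with the highest germinal centre B cell markers. It also had the lowest sum of the 6 B cell markers (1826.5 RPKM), with CD79B, MS4A1 and CD74 lowest there. PAX5, however, was highest there, and CD79A and CD22 were lowest in R1810A replicate 1. The part of either list was not tested. Without WT replicate 1, with the spread taken from the R1810A pair, the log2 fold changes were 0.42 for BCL2, 0.26 for BCL2L1 and 0.25 for MCL1. Without WT replicate 2 they were -0.23, -0.22 and -0.03. Without R1810A replicate 1 that of BCL2 was -0.07, and without R1810A replicate 2 those of BCL2L1 and MCL1 were -0.13 and -0.00. The median of the 9 members moved to 0.25 without WT replicate 1, and to -0.11 when WT replicate 2 was left out. BCL2L11 kept 0.35 and 0.31 in those fits. BIK came to 0.11 without WT replicate 1 and 0.02 without R1810A replicate 2, while BID came to 0.01 without R1810A replicate 1 and BCL2L12 to 0.02 without R1810A replicate 2. BMF came to -0.54 without R1810A replicate 1 and -0.0515 without R1810A replicate 2. BAD came to 0.42 without WT replicate 1 and 0.12 without WT replicate 2. No member passed the threshold in any of these 4 fits.

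**Figure D4:**
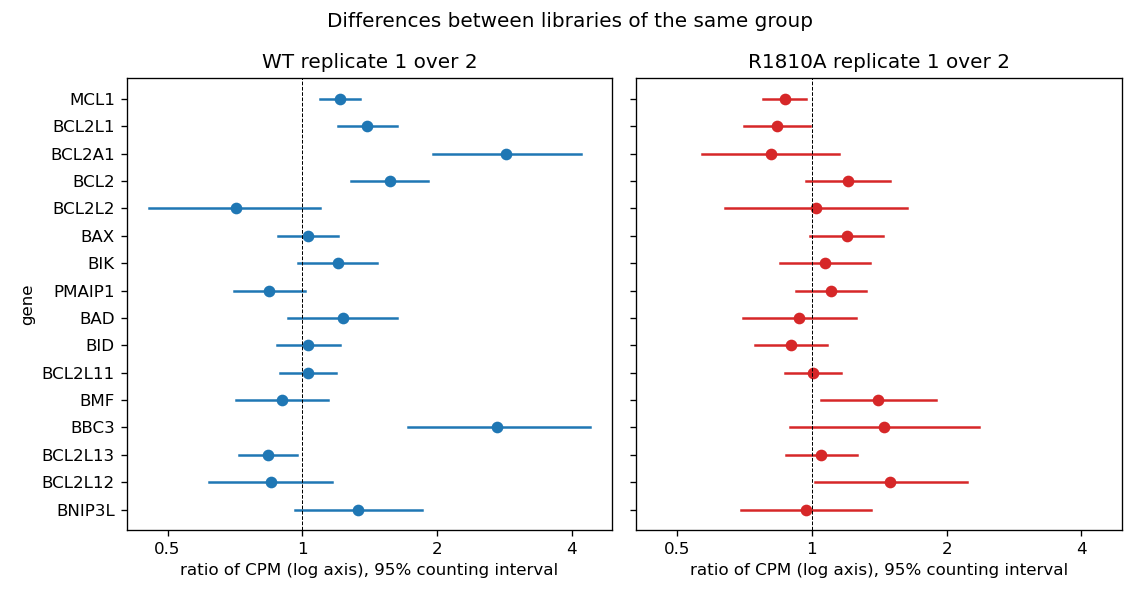
Ratio of replicate 1 to replicate 2 in CPM (log axis) with its 95% counting interval, for 16 tested BCL2 family genes, in WT (blue, left) and R1810A (red, right). In WT the intervals of MCL1, BCL2L1, BCL2A1, BCL2 and BBC3 lie above 1 and that of BCL2L13 below 1. In R1810A those of MCL1 and BCL2L1 lie below 1 and those of BMF and BCL2L12 above 1.

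A further 13 genes of the family were listed beside the members, and 7 of them had enough reads to be tested. The 3 tools called 0 of these. Of all genes tested, 4.94% were higher with an unadjusted edgeR p under 0.05. Among these 7, 1 was so by edgeR and by limma-voom, and 0 by DESeq2. That gene was PMAIP1 (ENSG00000141682), which codes for NOXA, the BH3-only partner that drives MCL1 to degradation. PMAIP1 stood at 86.3 and 102 CPM in WT and 125 and 114 CPM in R1810A, with no overlap. The log2 fold change was 0.33 (SE 0.13, adjusted p = 0.567 with edgeR), nearly that of BCL2L11, and it lay between 0.21 and 0.47 over 11 other settings. MCL1 exceeded PMAIP1 1.85-fold and 1.29-fold per length in WT and 1.17-fold and 1.48-fold in R1810A, with overlap.

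BAX stood at 128 and 124 CPM in WT and 120 and 101 CPM in R1810A, both R1810A libraries below both WT libraries, with a fold change of 0.877 (interval 0.719 to 1.07, edgeR adjusted p = 0.745). Its log2 fold change of -0.19 became -0.33 without R1810A replicate 1 and -0.0705 without R1810A replicate 2. BCL2L13, a mitochondrial outer membrane protein of the family, also lay lower without overlap, at 126 and 150 CPM against 122 and 116 CPM (fold change 0.860, edgeR adjusted p = 0.681). That log2 fold change of -0.22 became -0.34 without WT replicate 1 and -0.0826 on dropping WT replicate 2. BNIP3L, a mitophagy receptor, lay higher without overlap, at 34.6 and 26.0 CPM against 35.01 and 36.1 CPM (fold change 1.18, edgeR adjusted p = 0.785). It too depended on WT, with a log2 fold change of 0.24 that became 0.45 without WT replicate 1 and 0.0359 on dropping WT replicate 2.

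BCL2A1 and BBC3 varied most between the WT libraries. BCL2A1, an inhibitor that NF-κB is known to induce, had 93 and 43 WT reads and 61 and 75 R1810A reads, or 40.8 and 14.3 CPM against 29.3 and 36.1 CPM. WT replicate 1 exceeded WT replicate 2 by 2.85-fold (counting interval 1.96 to 4.19), and the log2 fold change of R1810A over WT was 0.29 with all libraries, 1.19 without WT replicate 1 and -0.32 without WT replicate 2 (edgeR adjusted p = 0.872, 0.054 and 0.617). BBC3, the gene of the p53 target PUMA, had 60 and 29 WT reads and 45 and 31 R1810A reads. The WT libraries differed by 2.72-fold (1.72 to 4.401), and its log2 fold change of 0.07 became 0.91 without WT replicate 1, -0.53 without WT replicate 2 and -0.23 without R1810A replicate 1. BCL2L2, which codes for the inhibitor BCL-W, had 34 to 63 reads per library and a log2 fold change of 0.06 (SE 0.26), which was -0.15 without WT replicate 1. It shares 18.3% of its 36-base stretches with the read-through gene BCL2L2-PABPN1.

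The other 6 genes of the list had few reads or none. HRK, a BH3-only gene known from neurons, had 3 to 7 reads per library, with the groups overlapping. BCL2L10, BOK and BCL2L15 had 0 reads in all libraries, and BCL2L14 and BNIP3 had 1 read in 1 library. The deposited lengths of HRK and BNIP3 were 696 and 1160 bases, against 6853 and 5325 in GENCODE release 29. The part of these shorter lengths in their counts was not tested. The upper limit of the exact Poisson interval for 0 reads, taken as for BAK1, was 0.258 to 0.347 RPKM for BOK and 0.546 to 0.735 RPKM for BCL2L10. Only human genes were counted, so viral genes are not covered. Among the listed human genes, the inhibitors with reads in every library were MCL1, BCL2L1, BCL2A1, BCL2 and BCL2L2. The effector RNA among them was almost all BAX.

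The genes that carry out or curb apoptosis around the family also had no called gene. Of 13 apoptosome and caspase genes 11 were tested, with a median log2 fold change of -0.06 and 0 called. CASP2, an initiator caspase, had the smallest p there, with WT libraries at 92.9 and 109 CPM, R1810A libraries at 84.9 and 93.3 CPM and a log2 fold change of -0.18 (SE 0.14). AIFM1, a flavoprotein of the mitochondrial intermembrane space, stood at 114 and 95.9 CPM against 116 and 118 CPM (0.17, SE 0.13). The 7 inhibitor of apoptosis proteins and their antagonists had a median of 0.02, with DIABLO at -0.24 (SE 0.20) and XIAP at 0.15 (SE 0.16). DIABLO came to 0.03 without R1810A replicate 1. Of 9 death receptor genes 8 were tested, with a median of 0.03, TNFRSF10A at 0.20 (SE 0.16) and RIPK1 at 0.29 (SE 0.25), which was -0.08 without WT replicate 2. In these 3 lists edgeR, DESeq2 and limma-voom called 0 genes and had 0 at an unadjusted p under 0.05. Of all genes tested, edgeR called 0.356% and had 8% at that p.

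Partners and turnover factors of BCL2 family proteins held 14 tested genes of 15, since no identifier in the files matched DYNLL2. All 3 tools called 0, and the median was 0.03. Before adjustment, 2 had a p under 0.05 by edgeR, both with positive fold changes, 2 by limma-voom and 0 by DESeq2. Of all genes tested, edgeR had 4.94% higher and 3.06% lower at that p. USP9X, a deubiquitinase that stabilises MCL1, stood at 156 and 152 CPM in WT and 185 and 203 CPM in R1810A, without overlap (a log2 change of 0.33, SE 0.11, edgeR adjusted p = 0.463). YWHAZ, a 14-3-3 protein of the kind that sequesters BAD, stood at 46.9 and 50.6 CPM against 66.2 and 60.6 CPM, also without overlap (0.38, SE 0.15, edgeR adjusted p = 0.559). In CPM, 3 genes of the 14 lay higher without overlap and 4 lower, against 19.8 and 19.5% of all genes.

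**Figure D5:**
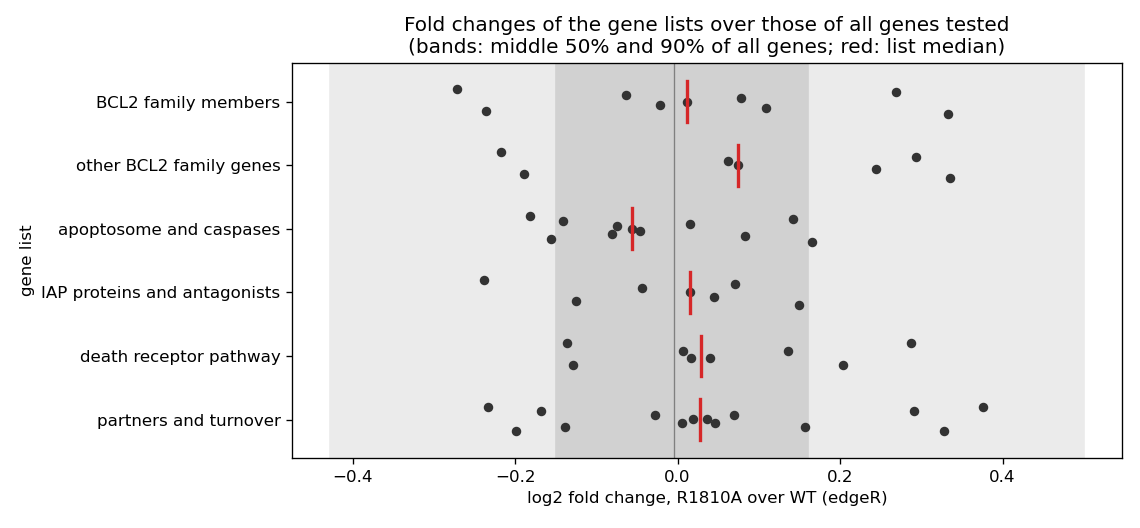
Log2 fold change of R1810A over WT for each tested gene of the members, the other family genes and 4 lists of apoptosis genes, with the list median in red. The bands hold the middle 50 and 90% of all 10674 genes, from -0.15 to 0.16 and from -0.43 to 0.50, and every gene of these lists lies within the wider band.

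The profile over the 4 libraries was compared between BIK, the member highest per length, and 5423 genes with a mean of at least 100 reads. By Euclidean distance of log2 CPM centred on each gene's mean, the nearest were the tubulin gene TUBB4B (0.015), ADO (0.020) and the chromatin gene RBBP4 (0.028). TUBB4B stood at 279 and 231 CPM in WT and 256 and 240 CPM in R1810A, the same order of libraries as BIK. This likeness describes 4 libraries only.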

How the data were processed

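The submitters' processing notes name Bowtie and the build hg19. Which counting program, annotation release, strand setting and rule for multiply matching reads applied is not given in the sources used here. Per the file headers, the authors deposited a read count for each Ensembl gene. The deposited RPKM values equalled count over length and total reads, with 0 values outside a relative tolerance of 0.0001. What the deposited total reads count is not stated. Symbols came from a table of gene names and GENCODE release 29, which uses another build, so no coordinates are given.

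The main test, on the counts of all genes, used glmQLFit and glmQLFTest of edgeR 4.0.16 under R 4.3.3, after filterByExpr and TMM and with group as the only term, which kept 10674 genes. The SE is the absolute log2 fold change divided by the square root of F. Intervals are 95% from that SE and the total degrees of freedom of the test, residual plus those gained from the spread across genes. The procedure was tested on simulated data. DESeq2 1.42.0, limma-voom (limma 3.58.1), other scalings, no filter, robust fitting, a replicate block and leaving out each library were alternatives. Ratios of 2 libraries have exact binomial intervals. The rule for naming took the 10 members, the other listed family genes, and from each list the 2 genes of smallest p where none passed. The members and lists were chosen with earlier results of these data known. Of the listed B cell markers, 1 is not reported here.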

Additional observations from a re-analysis of the deposited data

How the results depend on the processing

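No BCL2 family member, and no other listed family gene, passed the threshold under any of the 11 alternatives. Over all genes, edgeR called 37 higher and 1 lower. Higher genes numbered 78 with no filter, 73 with the replicate block, 24 with limma-voom and between 2 and 113 on leaving out single libraries. Lower genes numbered 5 with the deposited total reads, 7 with no filter, 4 with robust edgeR, 4 with the replicate block, 2 with DESeq2 and between 0 and 40 on leaving out single libraries. Whether same-numbered libraries of the 2 groups were handled together is not stated. Their deviations had a correlation of -0.04 across genes, which cannot exclude a pairing that touches only some genes. The difference in anti-apoptotic share, 0.495 percentage points, became -0.251 with raw counts, -0.136 with BCL2L12 counted as anti-apoptotic, -0.202 without MCL1 and -0.583 without BIK. It kept its sign at 0.325 with GENCODE lengths and 0.809 with the other family genes added, which lowered the shares to 35.9 and 36.7%, and it lay between -1.35 and 2.34 on leaving out single libraries. With each gene weighted the same, the mean log2(RPKM + 0.1) of the anti-apoptotic genes exceeded that of the pro-apoptotic genes by 0.9263 in WT and 0.92045 in R1810A, a difference of -0.0058 log2 units. The alternatives without BIK and with GENCODE lengths were chosen after seeing the data. With the deposited total reads, which moved the median of all genes to -0.13, the log2 fold changes became -0.0434 for BCL2, -0.11 for BCL2L1, -0.0147 for MCL1, -0.0587 for BCL2L2 and -0.0466 for BBC3, and BCL2L1 was -0.0013 with DESeq2. Over the 4 fits on 3 libraries, the log2 fold change spanned -0.23 to 0.42 for BCL2, -0.22 to 0.26 for BCL2L1, -0.0295 to 0.25 for MCL1, -0.15 to 0.00884 for BID, -0.16 to 0.11 for BIK, -0.56 to 0.0212 for BCL2L12, -0.15 to 0.35 for BCL2L2, -0.32 to 1.19 for BCL2A1, -0.53 to 0.91 for BBC3, -0.58 to 0.0334 for DIABLO and -0.0838 to 0.71 for RIPK1. Those of single sign that moved by over 1.5 times spanned 0.12 to 0.42 for BAD, -0.54 to -0.0515 for BMF, -0.33 to -0.0705 for BAX, -0.34 to -0.0826 for BCL2L13, 0.0359 to 0.45 for BNIP3L, 0.22 to 0.47 for PMAIP1, -0.29 to -0.0623 for CASP2, 0.0386 to 0.29 for AIFM1 and 0.00392 to 0.29 for XIAP. The cause was not tested. In such fits the lone library of a group is assumed to vary like the other group. Members of few reads, such as BAK1, are limited by depth.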
